A study of Mus musculus with 18 samples.

Results

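Microglia, the resident macrophages of the brain, were followed through 10 genes that mark them in the ventral dentate gyrus of mice whose mothers or grandmothers carried a deficit of the serotonin 1A receptor. The genes are Cx3cr1, Csf1r, Aif1, C1qa, C1qb, C1qc, Tmem119, P2ry12, Itgam and Trem2. They were taken by symbol from a table of 34620 genes, and all 10 were among the 17421 genes with enough reads to be tested. RNA-Seq was performed on 6 libraries of the microdissected granule cell layer, 2 each from WT, F1 and F2 males. All animals were Swiss Webster males aged 8 to 12 weeks, and the animals profiled were themselves genetically WT. F1 males had mothers heterozygous for the receptor (5HT1A-/+). By the paper's methods their fathers were heterozygous too, and their litters held heterozygous and knockout pups. F2 males had WT mothers, WT fathers and a 5HT1A-/+ grandmother. WT males had WT mothers and grandmothers from a lineage bred in parallel. Both comparisons with WT share the same 2 WT libraries. The labels do not give the number of animals behind a library, so the p-values measure the spread between libraries.

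Microglia enter the brain early in development and renew themselves there. Their survival depends on the receptor encoded by Csf1r, which binds the cytokines Csf1 and Il34. They read neuronal signals through Cx3cr1, the receptor of the neuronal chemokine fractalkine, and through P2ry12, a purine receptor that guides their processes to released nucleotides. The complement component C1q, which microglia supply in the brain, tags synapses for removal through Itgam, the alpha chain of complement receptor 3. Aif1 encodes Iba1, an actin-binding protein widely used to stain microglia, Tmem119 a surface protein that sets them apart from other macrophages, and Trem2 a lipid-sensing receptor that signals through the adaptor Tyrobp.

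Many microglial genes are controlled by PU.1, an ETS family factor encoded by Spi1, and AGGAAGT is one sequence that factors of this family can bind. RefSeq (GRCm38.p6) gave the 250 bases before the start site of 7 of the 10 genes, and each stretch was found exactly once in mm9, the build of the read counts. AGGAAGT, sought on both strands, was present in 3 of these 7, P2ry12, C1qb and C1qc, and in 7.69% of 32851 mouse promoter windows of the same length. The longer GAGGAAGT, which contains it, was present in that of C1qc and in 2.44% of all windows. TATAAA, the TATA box, was in none of the 7, against 12.4% of all windows. The 3 windows with a match and that of Cx3cr1, the fractalkine receptor, without one, are printed to show where the letters lie, with the match in capitals, on the strand of the gene, ending at the base before the start site. A match is a description of the letters only.
P2ry12, mm9 chr3:59066908-59067157 on the minus strand: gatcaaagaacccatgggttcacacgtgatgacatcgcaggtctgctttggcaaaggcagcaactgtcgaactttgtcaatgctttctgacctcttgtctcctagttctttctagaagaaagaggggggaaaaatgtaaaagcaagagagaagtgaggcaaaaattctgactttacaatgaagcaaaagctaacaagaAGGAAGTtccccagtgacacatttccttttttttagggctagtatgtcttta
C1qb, mm9 chr4:136442116-136442365 on the minus strand: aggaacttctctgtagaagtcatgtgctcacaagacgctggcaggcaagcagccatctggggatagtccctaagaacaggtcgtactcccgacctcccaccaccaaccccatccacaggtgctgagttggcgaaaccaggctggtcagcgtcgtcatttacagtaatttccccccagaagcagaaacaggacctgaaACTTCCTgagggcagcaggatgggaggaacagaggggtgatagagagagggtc
C1qc, mm9 chr4:136448830-136449079 on the minus strand: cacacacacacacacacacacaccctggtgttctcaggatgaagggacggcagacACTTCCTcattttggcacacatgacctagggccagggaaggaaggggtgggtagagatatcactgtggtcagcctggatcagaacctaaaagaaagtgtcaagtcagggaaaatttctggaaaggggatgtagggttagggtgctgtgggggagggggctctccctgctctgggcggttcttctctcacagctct
Cx3cr1, mm9 chr9:119977415-119977664 on the minus strand: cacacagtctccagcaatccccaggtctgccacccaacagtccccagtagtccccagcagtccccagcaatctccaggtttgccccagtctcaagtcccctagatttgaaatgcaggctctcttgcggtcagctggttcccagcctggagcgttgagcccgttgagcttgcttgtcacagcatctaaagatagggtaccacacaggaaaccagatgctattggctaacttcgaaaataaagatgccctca
The first base of the match lay 52 bases before the start site in P2ry12, 53 in C1qb and 195 in C1qc. It reads AGGAAGT on the strand of the gene in P2ry12, and on the opposite strand, so as ACTTCCT, in C1qb and C1qc. The distances count from the RefSeq start and would differ from another annotated start. Relative to the gene start in GENCODE M1, the RefSeq start lay at -154 bases in P2ry12, -13 in C1qb and 151 in C1qc (negative, upstream). C1qa, C1qb and C1qc are neighbours on the minus strand of chromosome 4, between positions 136436044 and 136454718 of mm9.

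Every one of the 10 genes was read in every library, with between 110 and 1408 reads each. Levels between genes are given per kilobase of annotated exon (RPKM, from the normalized counts), as means of the 6 libraries. C1qa was highest, at 20.8 RPKM, and only its lowest library, 15.4, was below the highest of C1qb, 15.8. C1qb averaged 11.9 and P2ry12 10.8 RPKM, and their ranges overlapped over most of their length. Cx3cr1 followed at 7.68, Csf1r at 7.42, Tmem119 at 6.32 and C1qc at 5.24 RPKM, again with overlapping ranges. Aif1 at 2.85, Itgam at 1.98 and Trem2 at 1.28 RPKM were the lowest, and no library of 1 of these 3 reached the range of another. The exons of Csf1r overlap those of Hmgxb3 on the opposite strand. P2ry12 lies within the span of Med12l, without shared exons. Whether counting used the strand is not stated in the sources used here.

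Levels between libraries are given as normalized counts (CPM, reads scaled to the size of the library) with TMM size factors from edgeR. Each generation was set against WT in the exact test of edgeR. P-values were adjusted over all genes tested by the Benjamini-Hochberg method, and q under 0.01 was the threshold. Microglia genes were higher than in WT on average in both generations: the summed level of the 10 was 143 ± 1.15 CPM in WT, 182 ± 16.3 in F1 and 202 ± 20.4 in F2 (SD, n = 2), 1.28 and 1.42 times the WT mean. The mean of each of the 10 exceeded that of WT in both generations. In F1 none of the 10 passed the threshold, where 12.3% of all genes tested did and 3.77% of all genes were higher. At q under 0.05, 3 of the 10 passed, where 20.8% of all genes tested did. Under an unadjusted p of 0.05 were 5 of the 10, and the share of all genes at that p is not given here. In F2, 5 of the 10 passed, all higher. Of the 17421 genes tested, 2084 passed in either direction in F2, and 3.86% of all genes were higher at this threshold. These 5 were Csf1r, C1qb, Tmem119, C1qa and Cx3cr1. The median log2 fold change of the 10 was 0.33 in F1 and 0.48 in F2, against 0.01 and -0.00 over all genes tested. Both F1 libraries lay above both WT libraries in 9 of the 10 genes, and both F2 libraries in 9, where 29.8% and 31.0% of all genes tested did so. All 4 F1 and F2 libraries lay above both WT libraries in 8 of the 10, against 21.0% of all genes. The lowest library was a WT library for each of the 10 and the highest was F2 replicate 1 for 8 of them.

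**Figure D1:**
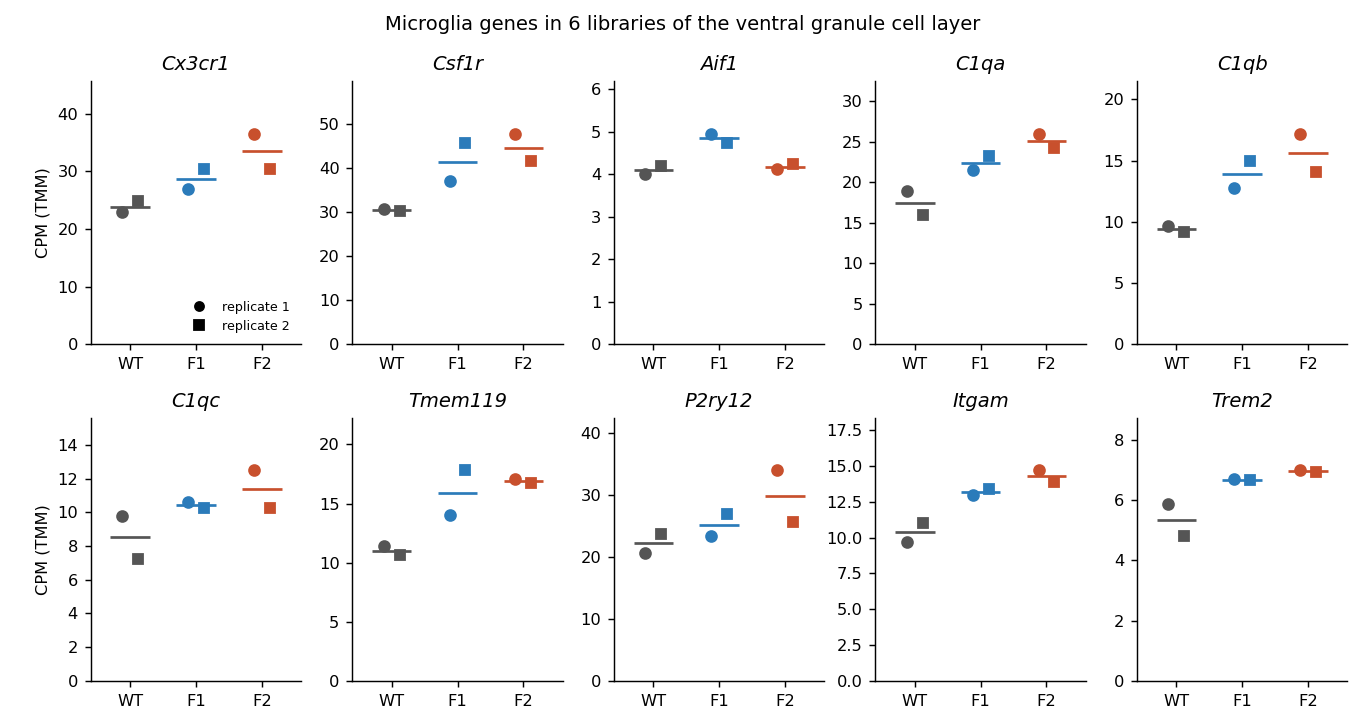
CPM of each microglia gene in each library (circles, replicate 1; squares, replicate 2; lines, group means; linear axes from 0, scaled by gene). Both F1 and both F2 libraries lie above both WT libraries in 8 of the 10 panels; in Aif1 the F2 and WT libraries overlap, and in P2ry12 the lower F1 library lies below the higher WT library.

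The count of 5 in F2 depended on the test and on single libraries. With edgeR's quasi-likelihood test none of the 10 passed, with a lowest q of 0.0107. That test also called fewer genes throughout, 997 in F2 against 2084. By it 8 of the 10 were under an unadjusted p of 0.05, again without a share of all genes given here. Leaving out a library of WT or F2 leaves 1 library in that group. In each of these omissions fewer of the 10 passed, and fewer of all genes tested passed too. The log2 fold changes of the 10 ran from -0.00038 to 0.773 without WT replicate 1 and from 0.0701 to 0.707 without WT replicate 2. They ran from 0.0538 to 0.607 without F2 replicate 1 and from 0.0129 to 0.874 without F2 replicate 2. Without either F1 library the count in F2 did not change. In F1 more of the 10 passed without F1 replicate 1, though not more of all genes tested. The direction was steadier: all 10 log2 fold changes were positive in F1 and in F2 under every test, normalization and omission tried, except that of Aif1 in F2, which was -0.00038 without WT replicate 1.

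**Figure D2:**
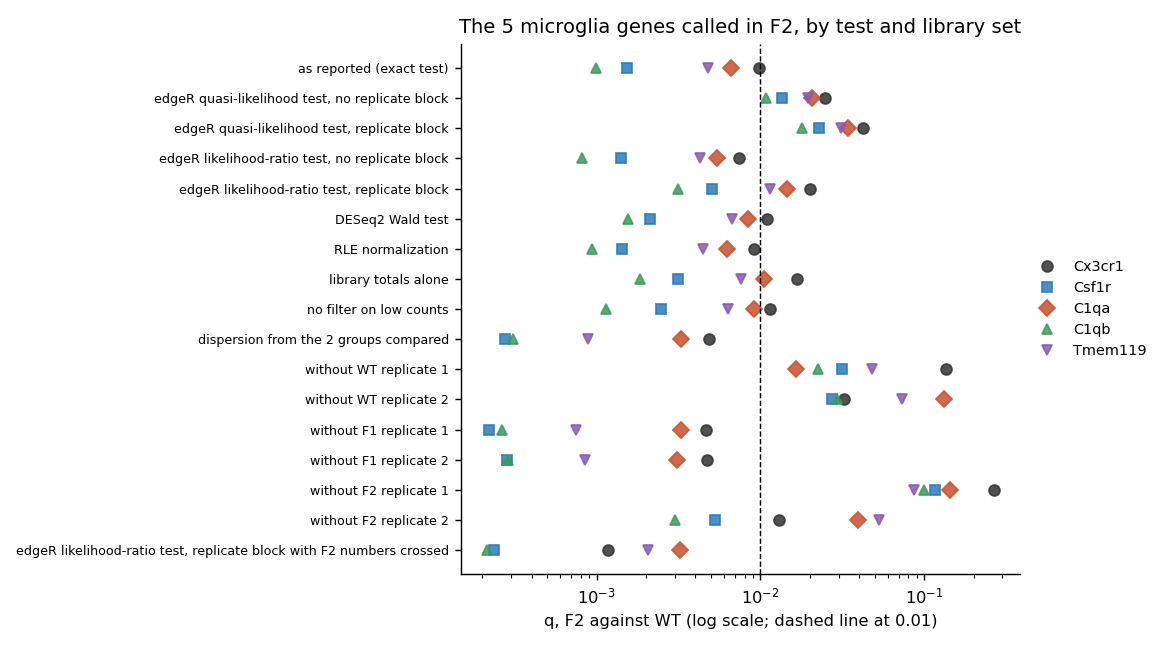
Adjusted p (q, log axis) of the 5 microglia genes called in F2 against WT, under each test, normalization and left-out library; the dashed line is the threshold. All 5 points lie right of the line under the quasi-likelihood tests and without WT replicate 1, WT replicate 2 or F2 replicate 1.

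Among the surface receptors, Csf1r, the survival receptor, had 30.6 and 30.2 CPM in WT, 37.1 and 45.6 in F1, and 47.8 and 41.5 in F2. Every F1 and F2 library lay above both WT libraries. The log2 fold change was 0.44 ± 0.14 (SE) in F1, with q = 0.0144 by edgeR's exact test, and 0.55 ± 0.14 in F2, with q = 0.00153. Cx3cr1, the fractalkine receptor, had 22.9 and 24.8 CPM in WT, 26.9 and 30.4 in F1, and 36.5 and 30.4 in F2. The groups did not overlap with WT, and the upper F1 and the lower F2 library were at nearly the same level. Its log2 fold change was 0.26 ± 0.15 in F1 (q = 0.213) and 0.49 ± 0.15 in F2 (q = 0.00973), the latter just inside the threshold. P2ry12, the purine receptor, had 20.7 and 23.7 CPM in WT, 23.4 and 26.9 in F1, and 33.9 and 25.7 in F2. WT and F1 overlapped, and F2 replicate 1 was the highest library. The log2 fold change of P2ry12 was 0.18 ± 0.17 in F1 (q = 0.487) and 0.43 ± 0.17 in F2 (q = 0.0540). Tmem119 had 11.4 and 10.7 CPM in WT, 14.0 and 17.8 in F1, and 17.1 and 16.7 in F2. No F1 or F2 library of Tmem119 overlapped with WT, and the F1 replicates were farther apart than the F2 replicates. Its log2 fold change was 0.53 ± 0.18 in F1 (q = 0.0177) and 0.62 ± 0.18 in F2 (q = 0.00480).

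The 3 chains of C1q are encoded side by side and assemble into 1 protein. C1qa had 18.9 and 16.0 CPM in WT, 21.5 and 23.2 in F1, and 26.0 and 24.2 in F2. C1qb had 9.65 and 9.19 CPM in WT, 12.8 and 15.0 in F1, and 17.2 and 14.1 in F2. C1qc had 9.80 and 7.25 CPM in WT, 10.6 and 10.3 in F1, and 12.5 and 10.3 in F2. All 3 chains were above both WT libraries in all F1 and F2 libraries, though the WT replicates of C1qc spread widely. C1qb had the highest log2 fold change of the 10 genes in both comparisons, 0.56 ± 0.18 in F1 (q = 0.0163) and 0.73 ± 0.18 in F2 (q = 0.000989). C1qa differed by 0.35 ± 0.15 in F1 (q = 0.0833) and 0.52 ± 0.15 in F2 (q = 0.00657), and C1qc by 0.29 ± 0.20 in F1 (q = 0.334) and 0.41 ± 0.21 in F2 (q = 0.140). C1qa and C1qb thus rose in F2, and C1qc did not pass the threshold. Of the summed level of the 3 per kilobase, C1qa made up 52.9% to 56.6%, C1qb 27.6% to 33.5% and C1qc 12.8% to 15.8% over the 6 libraries.

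Itgam, the complement receptor chain, had 9.71 and 11.05 CPM in WT, 13.01 and 13.4 in F1, and 14.7 and 13.8 in F2. Its F1 and F2 libraries lay above WT, by a log2 fold change of 0.35 ± 0.17 in F1 (q = 0.139) and 0.46 ± 0.17 in F2 (q = 0.0405). Trem2 had 5.88 and 4.82 CPM in WT, 6.70 and 6.67 in F1, and 6.99 and 6.94 in F2. The replicates of Trem2 were nearly equal within F1 and within F2, and its log2 fold changes of 0.32 ± 0.21 (q = 0.287) and 0.38 ± 0.21 (q = 0.197) did not pass the threshold. Aif1, the Iba1 gene, stood apart from the others. It had 4.0 and 4.19 CPM in WT, 4.95 and 4.73 in F1, and 4.11 and 4.23 in F2, so that only the F1 libraries were both above both WT libraries. Its log2 fold change was 0.24 ± 0.21 in F1 (q = 0.469) and 0.03 ± 0.22 in F2 (q = 0.967), with a 95% interval in F2 from -0.40 to 0.45.

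**Figure D3:**
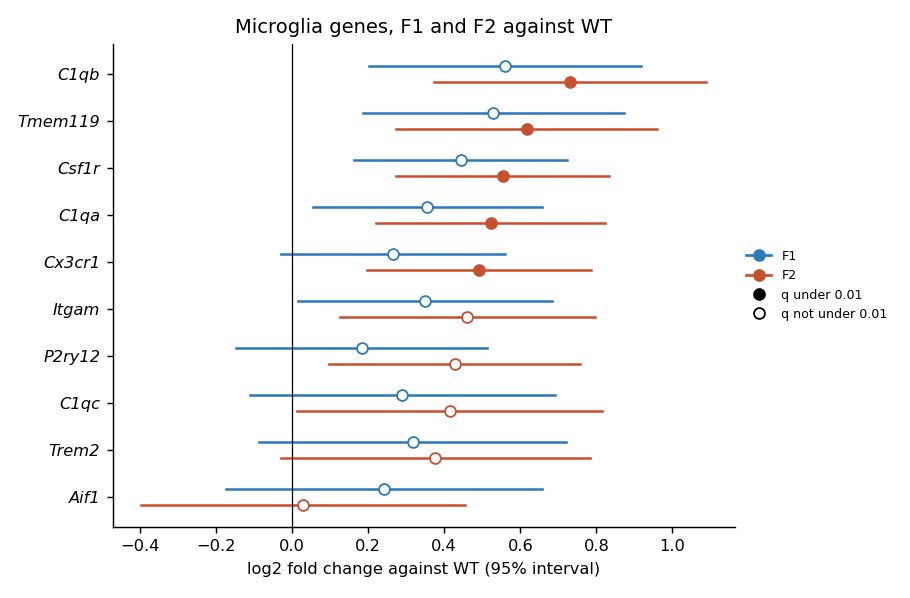
Log2 fold change of each microglia gene in F1 and in F2 against WT, with 95% intervals (filled points, q under 0.01). All points lie right of 0, the 5 filled points are in F2, and the F1 and F2 intervals of each gene overlap.

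F2 and F1 were then compared directly. None of the 10 genes passed the threshold, where 0.740% of all genes tested did, and none was under an unadjusted p of 0.05 by the exact test; the quasi-likelihood test and DESeq2 called none of the 10 either. The mean was higher in F2 for 9 of the 10, and log2 fold changes ran from -0.21 for Aif1 to 0.24 for P2ry12, with a lowest q of 0.787. The lowest bound of a 95% interval was that of Aif1, from -0.63 to 0.21. The highest was that of P2ry12, from -0.085 to 0.57. The interval of each of the 10 included 0. The 5 genes called in F2 and not in F1 are therefore not shown to differ between the generations.

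Lists of genes of other cell types were measured in the same libraries, to place the microglia genes among the cells that a dissected granule cell layer could hold. Prox1, which defines granule neurons, had 228 to 345 CPM, and the summed granule neuron list was 1386 ± 5.27 CPM in WT, 1291 ± 131 in F1 and 1519 ± 26.0 in F2 (SD, n = 2). The astrocyte list of 7 genes was 2494 ± 164 CPM in WT, 3237 ± 442 in F1 and 3647 ± 467 in F2, 1.30 and 1.46 times WT, and all of its genes were above WT on average in both generations. Of the astrocyte genes 1 passed the threshold in F1 and 5 in F2, among them Gfap, the astrocyte filament, with 190 and 197 CPM in WT, 222 and 387 in F1, and 363 and 285 in F2. The order of the libraries was the same in the astrocyte and microglia sums among the F1 and F2 libraries. The ratio of the microglia to the astrocyte sum was 0.0603 and 0.0543 in WT, 0.0584 and 0.0547 in F1, and 0.0545 and 0.0567 in F2, and did not separate the groups. The ratio to the granule neuron sum separated WT from F1 and F2, which overlapped with each other, with 0.103 and 0.103 in WT, 0.143 and 0.140 in F1, and 0.141 and 0.125 in F2. The list of 7 endothelial and mural genes summed to 1.23 and 1.29 times WT, with Cldn5 of endothelial cells at 22.7 to 30.0 CPM. The oligodendrocyte list of 8 genes was 1086 and 1979 CPM in WT, 2946 and 2222 in F1, and 1520 and 2872 in F2, 1.69 and 1.43 times the WT mean. Both F1 libraries lay above both WT libraries, while F2 overlapped with WT and with F1. All 8 oligodendrocyte genes were above WT on average in both generations, 3 passed the threshold in F1 and 2 in F2, and Mbp, the myelin gene, ranged from 457 to 1199 CPM. The choroid plexus gene Ttr was at or under 1.10 CPM in every library. The share of uniquely aligned reads that HTSeq assigned to no feature also moved with the groups. In the strict mode the paper names, such reads include those only partly on an exon. The share was 17.7% and 20.7% in WT, 13.8% and 12.2% in F1, and 13.9% and 17.4% in F2. The part of these cell types and of this share in the microglia result was not tested. In bulk libraries, more cells of a type and more RNA per cell cannot be told apart.

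**Figure D4:**
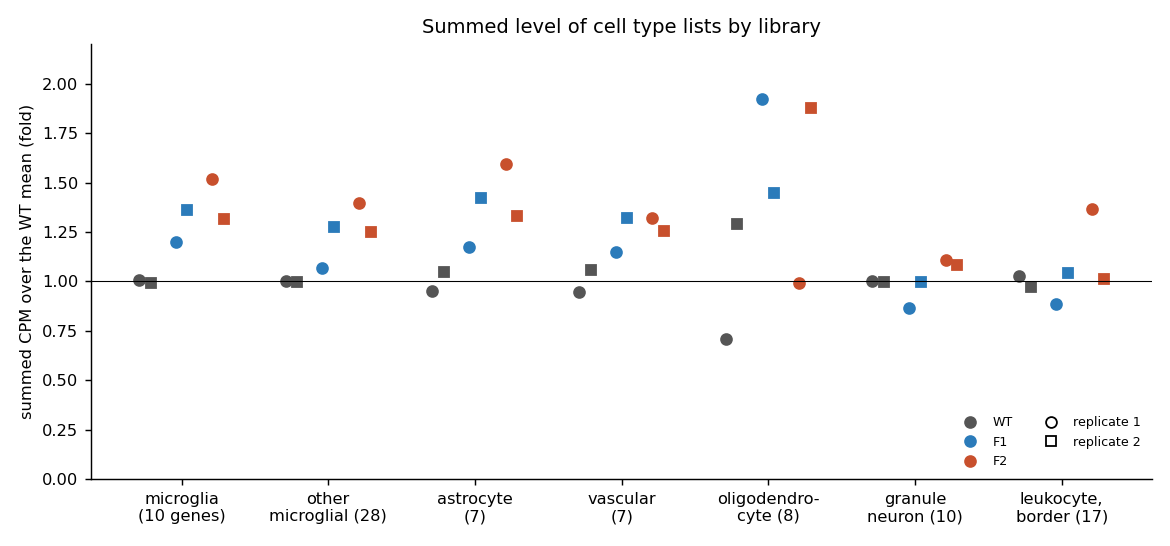
Summed CPM of each cell type list in each library, divided by its WT mean (circles, replicate 1; squares, replicate 2; linear axis from 0). The microglia, other microglial, astrocyte and vascular sums of all F1 and F2 libraries lie above both WT libraries, while in the oligodendrocyte list both F1 libraries do and F2 replicate 1 does not.

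Blood leukocytes and border macrophages share several of the 10 genes, so 17 of their own genes were examined. The neutrophil gene Ly6g had 0 reads in all 6 libraries, which allows up to 0.112 CPM in the shallowest library and 0.0882 in the deepest (3 reads, counting error only). Of the 17 genes, 8 had too few reads to be tested, none of them with more than 10 reads in any library. Ccr2, the receptor of infiltrating monocytes, had 5 to 37 reads, with log2 fold changes of 0.19 ± 0.66 in F1 (q = 0.921) and -0.82 ± 0.71 in F2 (q = 0.457) by the exact test. Mrc1, a mannose receptor of border macrophages, had 2.21 and 2.25 CPM in WT, 2.15 and 3.34 in F1, and 6.65 and 3.45 in F2, and rose in F2 by a log2 fold change of 1.18 ± 0.33 (q = 0.00480). The difference in Mrc1 was 0.64 and did not pass the threshold (q = 0.346) without F2 replicate 1. Ly6c2, a monocyte gene with a near-identical neighbour in Ly6c1, had 1 and 0 reads in WT, 20 and 34 in F1, and 2 and 9 in F2, and passed the threshold in F1 (q = 4.52e-08); its reads are uncertain because of the copy. The summed level of the list was 0.965 times WT in F1 and 1.19 times WT in F2. The study perfused the animals with RNAlater in saline before the brains were frozen. A list of 4 red blood cell genes summed to 3.03 and 3.91 CPM in WT, 11.3 and 4.50 in F1, and 6.58 and 3.08 in F2. Of these, 1 passed the threshold higher in F1. The part of residual blood in the microglia result was not tested.

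Of 28 further genes of resting microglia, 4 rose in F1 and 4 in F2, where 3.77% and 3.86% of all genes tested were higher. None of the 28 fell, and 21 and 25 were above WT on average. Their median log2 fold change was 0.15 in F1 and 0.31 in F2, against 0.01 and -0.00 over all genes tested. Fcrls, an Fc receptor-like gene characteristic of microglia, had 1.41 and 1.27 CPM in WT, 3.63 and 4.11 in F1, and 5.79 and 3.71 in F2. Fcrls rose by 1.52 ± 0.30 in F1 (q = 1.02e-05) and 1.82 ± 0.30 in F2 (q = 7.05e-08) on the log2 scale, and passed the threshold in both comparisons under every test tried and without each library. Laptm5, a lysosomal membrane protein of blood and microglial cells, rose by 0.72 ± 0.21 in F1 (q = 0.00490) and 0.78 ± 0.21 in F2 (q = 0.00238). Selplg, a selectin ligand, rose in F1 by 0.65 ± 0.19 (q = 0.00691), and its value in F2 was 0.61 ± 0.19 (q = 0.0125). Slc2a5, a fructose transporter of microglia, rose in F2 by 1.06 ± 0.32 (q = 0.00824), and its value in F1 was 0.67 ± 0.32 (q = 0.134). The calls of Laptm5, Selplg and Slc2a5 were each lost without WT replicate 2, among other libraries. The highest q without a library was 0.160 for Laptm5 in F1 (WT replicate 2), 0.113 in F2 (F2 replicate 1), 0.178 for Selplg (F1 replicate 2) and 0.158 for Slc2a5 (WT replicate 2).

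Ligands, partners and regulators of the microglia receptors formed a list of 13 genes, of which none passed the threshold in F1 or F2 by the exact test and 1 did between them. Of the 13, 11 in F1 and 10 in F2 were above WT on average. Csf1, the first ligand of Csf1r, had 28.1 to 33.5 CPM in all libraries, with log2 fold changes of -0.03 ± 0.14 in F1 (q = 0.940) and 0.11 ± 0.14 in F2 (q = 0.627). Il34, its other ligand and a product of neurons, had 49.1 and 42.7 CPM in WT, 52.9 and 52.3 in F1, and 28.5 and 39.6 in F2. Both F2 libraries of Il34 were below all others, and F2 was lower than F1 by a log2 fold change of -0.63 ± 0.16 (q = 0.00915), while its values against WT were 0.20 ± 0.16 in F1 (q = 0.401) and -0.43 ± 0.16 in F2 (q = 0.0344). The difference between F2 and F1 in Il34 was -0.40 without F2 replicate 1, and it passed the threshold in 2 of 6 omissions of a library. Cx3cl1, the fractalkine gene, had 422 and 388 CPM in WT, 524 and 514 in F1, and 490 and 498 in F2. Its libraries in F1 and F2 lay above WT, with log2 fold changes of 0.36 ± 0.11 (q = 0.0123) and 0.29 ± 0.11 (q = 0.0535). Tyrobp, the adaptor of Trem2, had 4.68 to 5.12 CPM in WT and 6.09 to 6.64 in F1 and F2, with values of 0.38 ± 0.21 (q = 0.178) and 0.33 ± 0.21 (q = 0.276). Itgb2, the partner chain of Itgam, had a log2 fold change of 0.65 ± 0.35 in F1 (q = 0.185) and 0.19 ± 0.35 in F2 (q = 0.779), and its F1 replicates were at 1.88 and 3.85 CPM. Spi1, the PU.1 gene, is listed under its older symbol Sfpi1, with 1.79 and 1.62 CPM in WT, 2.58 and 2.78 in F1, and 2.88 and 2.67 in F2. The F1 and F2 libraries of Sfpi1 lay above WT, with values of 0.65 ± 0.26 (q = 0.0660) and 0.70 ± 0.27 (q = 0.0465) on the log2 scale. Irf8, a partner of PU.1, had 3.82 and 3.84 CPM in WT, 3.14 and 4.95 in F1, and 3.55 and 3.42 in F2. Both F2 libraries of Irf8 lay below both WT libraries, while its F1 libraries spread around them. Its log2 fold changes were 0.08 ± 0.26 in F1 (q = 0.894) and -0.14 ± 0.26 in F2 (q = 0.786). Syk, the kinase that acts after Tyrobp, had -0.34 ± 0.29 in F1 (q = 0.454) and -0.53 ± 0.30 in F2 (q = 0.214), and Tgfb1, which microglia need for their resting state, 0.50 ± 0.26 (q = 0.173) and 0.63 ± 0.26 (q = 0.0754).

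Of 9 complement genes other than C1q, 2 rose in F1 and none in F2, and none fell. Above WT on average were 4 of the 9 in F1 and 7 in F2, with median log2 fold changes of -0.02 and 0.22. The 2 that rose in F1 were C1ra and C1s, the proteases that C1q carries. C1ra had 13 and 9 reads in WT, 36 and 45 in F1, and 23 and 23 in F2, a log2 fold change of 1.90 ± 0.42 in F1 (q = 6.72e-05), which did not pass without WT replicate 2 (q = 0.0105). C1s had 14 and 0 reads in WT, 21 and 36 in F1, and 15 and 9 in F2; its log2 fold change in F1 was 2.08 ± 0.65 (q = 0.00951). It passed in 2 of 6 omissions of a library, not without WT replicate 2 (1.18, q = 0.242), F1 replicate 2 or either F2 library, and not by the quasi-likelihood test. C3, which C1 activates further down, had 8 to 40 reads and log2 fold changes of -0.30 ± 0.51 in F1 (q = 0.745) and -1.05 ± 0.54 in F2 (q = 0.165).

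Of 22 genes known from activated microglia, 8 had too few reads to be tested, among them Ccl4, a chemokine, with 9 reads over all libraries. Of the 14 tested, 2 rose in F1, and 4 rose and 1 fell in F2. Ctsd, a lysosomal protease, rose by 0.51 ± 0.12 in F1 (q = 0.000269) and 0.41 ± 0.12 in F2 (q = 0.00522). Ctsb, another, rose in F1 by 0.42 ± 0.11 (q = 0.00208), with 0.30 ± 0.11 in F2 (q = 0.0374), and Ctsz rose in F2 by 0.55 ± 0.17 (q = 0.00952), with 0.47 ± 0.17 in F1 (q = 0.0314). Apoe, a lipid carrier that astrocytes also make in quantity, rose in F2 by 0.40 ± 0.12 (q = 0.00789), and Axl, a receptor for dying cells, by 0.53 ± 0.16 (q = 0.00812); their values in F1 were 0.29 ± 0.12 (q = 0.0667) and 0.39 ± 0.16 (q = 0.0605). Each of these calls was lost without at least 1 of the libraries compared. The highest q was 0.0262 for Ctsd in F1 and 0.0547 for Ctsb, both without WT replicate 2, and 0.172 for Ctsz without F2 replicate 2. Without F2 replicate 1 it was 0.117 for Ctsd in F2, 0.261 for Apoe and 0.129 for Axl. Lpl, lipoprotein lipase, which neurons of the hippocampus also express, moved the other way. Lpl had 134 and 148 CPM in WT, 194 and 169 in F1, and 84.5 and 112 in F2, and the 3 groups did not overlap. It fell in F2 against WT by 0.52 on the log2 scale (SE 0.14, q = 0.00335), had 0.36 ± 0.14 in F1 (q = 0.0544), and was lower in F2 than in F1 by -0.89 ± 0.14 (q = 7.90e-07). Without F2 replicate 1 neither difference of Lpl passed (q = 0.240 against WT and 0.0115 against F1).

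**Figure D5:**
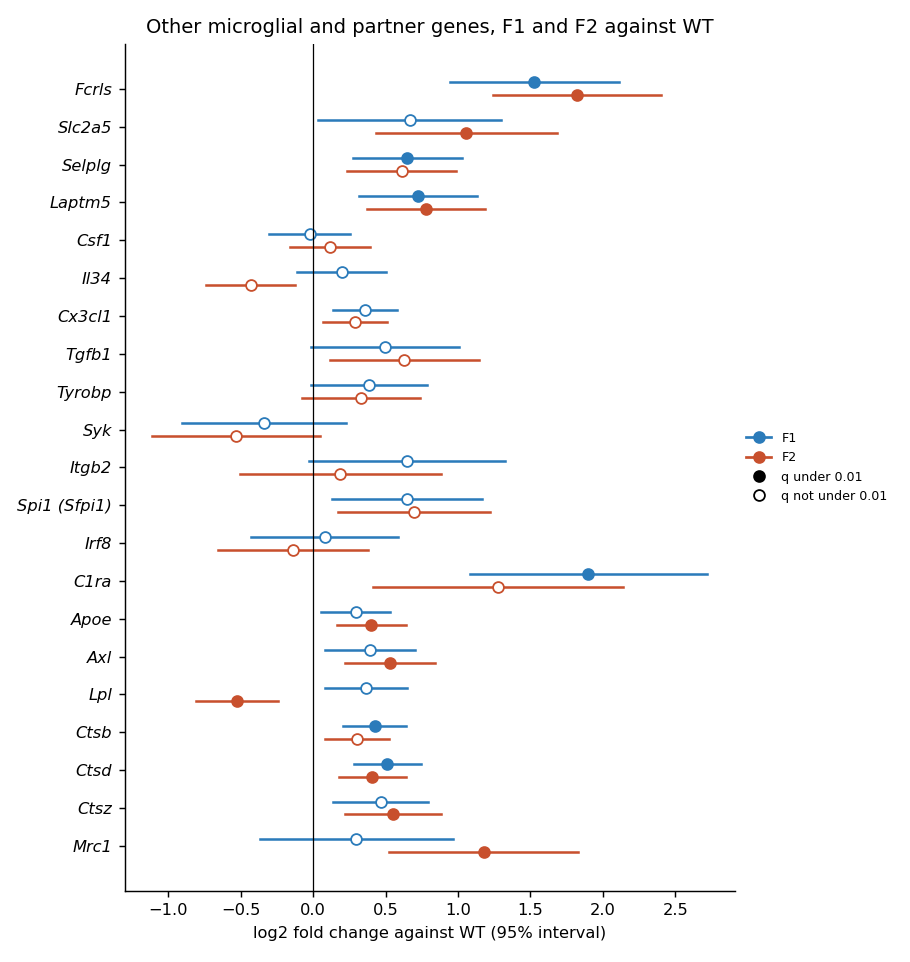
Log2 fold change in F1 and in F2 against WT, with 95% intervals, of genes of resting microglia (Fcrls to Laptm5), ligands, partners and regulators (Csf1 to Irf8), complement (C1ra), activation (Apoe to Ctsz), and the border macrophage gene Mrc1 (filled points, q under 0.01). Fcrls and C1ra are the farthest to the right. Il34, Lpl, Csf1 and Irf8 lie on opposite sides of 0 in F1 and F2, and the intervals of Csf1 and Irf8 include 0.

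The genes whose pattern over the 6 libraries was most like the mean of the 10 microglia genes were sought among 14647 other genes with a mean of at least 1 CPM, by the root-mean-square difference of centred log2 CPM. The nearest 5 were Gpd1l, at 0.0165, then Stk32c, Cdc42se2, Ccny and Paqr9, at 0.0277 to 0.0309, on a pattern whose own root-mean-square size was 0.207. None of these 5 is a marker of microglia on the lists used. Among the nearest 100 genes were 1 of the activation list, 1 of the astrocyte list and none of the 28 further genes of resting microglia. Counting noise adds to this distance in genes with few reads, so no conclusion is drawn from their absence. Cdc42se2 had 5888 to 8777 reads per library and Paqr9 550 to 864, while Fcrls had 36 to 155. The 10 microglia genes themselves lay between 0.0630 (C1qa) and 0.205 (Aif1) from their mean. Htr1a, the receptor gene that the grandmothers of F2 and the mothers of F1 lacked in part, had 49.3 to 68.6 CPM in these WT males, with log2 fold changes of -0.18 ± 0.12 in F1 (q = 0.332) and 0.20 ± 0.12 in F2 (q = 0.266).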

How the data were processed

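The authors microdissected the granule cell layer from cryosections, prepared TruSeq RNA libraries, sequenced single-end reads of 50 bases, aligned them to mm9 with TopHat and counted reads on genes with HTSeq. The deposited values are these raw counts per gene symbol, without normalization. Reads on genes numbered 26358165 to 33727936 per library. The 5 HTSeq rows that name no gene, 35.3% to 46.6% of all entries, were left out of library sizes and tests. The number of libraries limits the precision, and in genes with few reads counting noise limits it too.

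Genes passing filterByExpr were scaled by TMM and tested by the exact test of edgeR 4.0.16 (R 4.3.3). The common and tagwise dispersions were estimated over the 3 groups and gave a CV of 9.42% to 12.9% for the 10 genes. The study's methods name edgeR and tagwise dispersion but not the test. Standard errors follow from mean counts and tagwise dispersion. The procedure was checked on simulated counts. Replicates differed by more than sampling noise (chi-square over genes per degree of freedom of 18.5 to 23.0). Same-numbered replicates of different groups did not deviate together (correlations of -0.26 to -0.01), so replicate numbers were not treated as pairs.

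The 10 genes and all lists were chosen with earlier results of these data known. Genes named are the 10, every list gene of microglia, partners, complement, activation or leukocytes past the threshold, a fixed set of ligands, partners and markers, and the 5 genes of nearest pattern. Some genes this rule covers are not reported here, and the counts over lists include them. Exon lengths come from GENCODE M1 (mm9). The alternatives tried were the quasi-likelihood test and the likelihood-ratio test of edgeR, with and without a replicate block, DESeq2 1.42.0, other normalizations, no filter, dispersion from the groups compared, q under 0.05, and each library left out. Python 3.11.15, pandas 2.3.3 and matplotlib 3.10.9 made tables and plots. The bisulfite sequencing samples were not analysed here.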

Additional observations from a re-analysis of the deposited data

Results flagged for a closer look

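The effects in F1 and F2 differed by the direct test in 3 genes of the lists measured. Il34 and Lpl were lower in F2 than in F1. Lum, of the choroid plexus and meninges list and named after its values were seen, was higher in F2, with a log2 fold change of 0.728 (q = 0.00451 by edgeR's exact test). The log2 fold change of F2 against F1 was -0.627 for Il34 (q = 0.00915) and -0.886 for Lpl (q = 7.90e-07) by edgeR's exact test, and both libraries of F2 lay below both of F1 in Il34 and in Lpl. For Il34 the q passed 0.01 in 4 of 11 other settings and in 2 of 6 omissions of a library. For Lpl it did so in 9 of 11 and in 5 of 6. No difference between F2 and F1 passed the threshold among the 10 microglia genes.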

How the results depend on the processing

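Of the 10 microglia genes the count past the threshold in F2 against WT was 5. It was 0 with the quasi-likelihood test, 0 with that test and the replicate block, 2 with the likelihood-ratio test and the block, and 3 with library totals in place of TMM. Of all genes tested, 5.72%, 4.35%, 10.1% and 11.5% passed in F2 in these settings, in that order. Leaving out a WT or F2 library lowered the count, and fewer of all genes tested passed then too. In F1 the count was 0. It was 3 at q under 0.05, where 20.8% of all genes tested passed, and 2 with a block whose F2 numbers were crossed, where 15.4% did. That block was an alternative chosen after seeing the data. Leaving out F1 replicate 1 raised the count in F1, though not over all genes tested. DESeq2, the likelihood-ratio test, RLE, no filter, dispersion from the groups compared and q under 0.05 gave 4 to 6 in F2. Of all genes tested, 6.77% (no filter) to 20.7% (q under 0.05) passed in F2 in these settings. The replicate numbers did not pair the samples, and the block moved no other count of the 10 genes by over 1.5 times. Over all genes the quasi-likelihood test called 1029 in F1 and 997 in F2, against 2144 and 2084, and 2 between F2 and F1, against 129. With a library left out, its group holds 1 library and is assumed to vary like the others. Log2 fold changes that crossed 0 with a library left out ranged from -0.00038 to 0.0701 for Aif1 in F2, and, in F1, from -0.0468 to 0.59 for Mrc1, -0.0531 to 0.0167 for Csf1, -0.28 to 0.38 for Irf8, -1.38 to 0.32 for C3 and -1.82 to 1.02 for Ccr2, which was -0.12 with the crossed block. Between F2 and F1 they ranged from -0.0334 to 0.27 for Csf1r, -0.0192 to 0.26 for C1qc and -0.0768 to 0.27 for Tmem119. The summed level of the 10 genes over WT was 1.2 to 1.36 in F1 and 1.32 to 1.52 in F2 with a library left out. No other normalization moved the median of all genes by over 0.1. Apart from the tests, normalizations and omissions named, the cause of these changes was not tested.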
